A study of Caenorhabditis elegans with 2 samples.

Results

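Divergent promoters are the stretches of DNA that lie between a pair of genes transcribed away from each other. The 185 regions described here are the autosomal ChIP-seq peaks of ZTF-26, a zinc finger protein of the nematode Caenorhabditis elegans, that lay in such promoters. A peak was a member when its summit was more than 100 bp from any tRNA gene and inside the promoter windows of at least 1 plus-strand and at least 1 minus-strand protein-coding gene. Each annotated transcript 5′ end had a promoter window that reached 1000 bp upstream of it and 500 bp downstream. The peaks came from the authors' optimal list, which was cut by a reproducibility threshold, and are called reproducible peaks below. Not every peak of the list overlapped a peak of each replicate. Of this list, 1360 peaks were autosomal and more than 100 bp from a tRNA gene, and the other 569 were not. The 185 members were among the 1360. Of the rest, 572 lay in the windows of genes of 1 strand and are called one-directional here, and 603 peaks lay outside every protein-coding window. Among the reproducible peaks, membership used the position of a peak and not its height. The reproducible list itself held only the strongest peaks of the pooled replicates, so every member had also passed a cut on height.

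All samples belonged to 1 group of 2 biological replicates, numbers 3 and 4. The worms were strain OP565, genotype unc-119(tm4063) III with the transgene wgIs565, which stably expresses ZTF-26 with a C-terminal GFP-FLAG tag. An anti-GFP antibody was used on sonicated chromatin of whole young adults of pooled male and female worms, taken 56 hours after starved L1 larvae had been synchronized. The tagged protein came from a transgene, and whole worms mix all tissues, so the cells in which a site was bound cannot be told apart. A control library was not analysed here, nor was any other factor, and whether these regions also hold peaks there was not tested. Peak signal is the authors' own value for each peak, and neither its scale nor its unit was given. The lists hold no read counts, so the depth of the libraries is unknown. All peaks of the reproducible list shared 1 −log10 q-value, so signal alone ranked them.

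The worm genome is compact, and neighbouring genes often stand head to head and share 1 short intergenic stretch, from which each is transcribed outward. Such a shared stretch can hold the promoters of both genes, and a protein bound there cannot be given to either gene from its position alone. Many worm mRNAs are trans-spliced, a step that replaces the first part of the transcript by a spliced leader, so an annotated 5′ end can lie downstream of the place where transcription starts. Zinc finger proteins are a large class that includes many DNA-binding factors.

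The sequences below reach 50 bases to either side of the summits of members that carry words found more often in divergent than in one-directional summits. They are on the plus strand of ce11, and capitals mark those words, which are described further below.
K01G5.10/tasp-1, III:10759192-10759292: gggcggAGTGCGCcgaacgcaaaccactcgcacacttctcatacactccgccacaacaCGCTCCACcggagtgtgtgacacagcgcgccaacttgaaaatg
rpl-15/K11H12.8, IV:654875-654975: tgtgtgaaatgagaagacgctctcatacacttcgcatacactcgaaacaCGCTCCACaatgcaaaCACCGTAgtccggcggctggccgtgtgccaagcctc
drr-2/set-16, III:13643695-13643795: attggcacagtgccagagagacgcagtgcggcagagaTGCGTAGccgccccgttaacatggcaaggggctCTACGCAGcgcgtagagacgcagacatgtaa
cct-8/Y55F3AR.2, IV:1094317-1094417: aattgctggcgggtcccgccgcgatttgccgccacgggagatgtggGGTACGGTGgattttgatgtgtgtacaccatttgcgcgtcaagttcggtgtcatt
iff-2/F54C9.14, II:8561385-8561485: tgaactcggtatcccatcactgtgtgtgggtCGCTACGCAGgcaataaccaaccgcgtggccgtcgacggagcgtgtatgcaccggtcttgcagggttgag
rpl-12/lin-54, IV:13240634-13240734: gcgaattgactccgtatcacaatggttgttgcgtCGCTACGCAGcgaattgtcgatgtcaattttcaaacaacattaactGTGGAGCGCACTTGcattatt
rps-14/rpl-36, III:7179823-7179923: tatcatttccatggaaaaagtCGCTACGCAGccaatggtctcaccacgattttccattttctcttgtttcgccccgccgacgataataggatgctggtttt
rpl-39/rps-30, V:7776260-7776360: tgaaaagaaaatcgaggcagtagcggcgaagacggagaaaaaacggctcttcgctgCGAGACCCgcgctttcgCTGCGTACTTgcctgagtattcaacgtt
The summit window of the second strongest member held none of them.
rpl-20/Y17G9B.5, IV:4750018-4750118: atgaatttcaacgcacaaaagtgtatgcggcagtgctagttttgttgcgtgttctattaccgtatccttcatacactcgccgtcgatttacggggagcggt

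The 185 summits lay in 181 merged regions, with 36 on chromosome I, 31 on II, 49 on III, 36 on IV and 33 on V. For 169 members the summit was in the window of exactly 1 gene on each strand, and for the other 16 it was in the windows of 3 genes. Together the windows belonged to 376 genes. Most summits sat in the shared stretch itself. The summit lay between the facing 5′ ends for 166 members (89.7%, 95% exact interval 84.4 to 93.7) and to 1 side of both ends for 17. For the other 2 the nearest 5′ ends did not face each other. Among the 972 lower-ranked candidates in divergent windows, 57.2% had a summit between facing ends. The share among divergent peaks was 87.6% in the top list of replicate 3 and 84.4% in that of replicate 4, where the top list holds as many of the strongest peaks of that replicate as the reproducible list holds peaks.

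By annotation, 154 divergent summits (83.2%) were intergenic, against 58.4% of one-directional summits. Coding exons held 4 divergent summits (2.16%) and 11.0% of one-directional ones, and introns held 5.95% and 22.4%. A further 14 divergent summits (7.57%) were in an annotated 5′ untranslated region. A snoRNA gene lay within 100 bp of 3 divergent summits (1.62%) and of 4.37% of one-directional summits. The rule that asks for a gene on each side favours intergenic positions, so these shares describe the members and are not independent of how they were chosen.

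The gap between facing 5′ ends had a median of 528 bp among the 166 members, and ran between 92 and 1768 bp. The summit was a median of 162 bp upstream of the nearer 5′ end and 378 bp upstream of the farther one. It was within 50 bp of the nearer end in 32 members (19.3%), against 5.82% of the 447 one-directional summits upstream of their gene. It was within 200 bp in 103 members, and more than 500 bp away in 9 members (5.42%), against 134 of those 447 one-directional summits. A divergent summit has a 5′ end on either side and so more chances to be close to one, and this alone shortens the distance to the nearer end. Within the gap, the median position was at a fraction of 0.321 of the gap from the nearer end, where 0.5 is the middle.

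**Figure D1:**
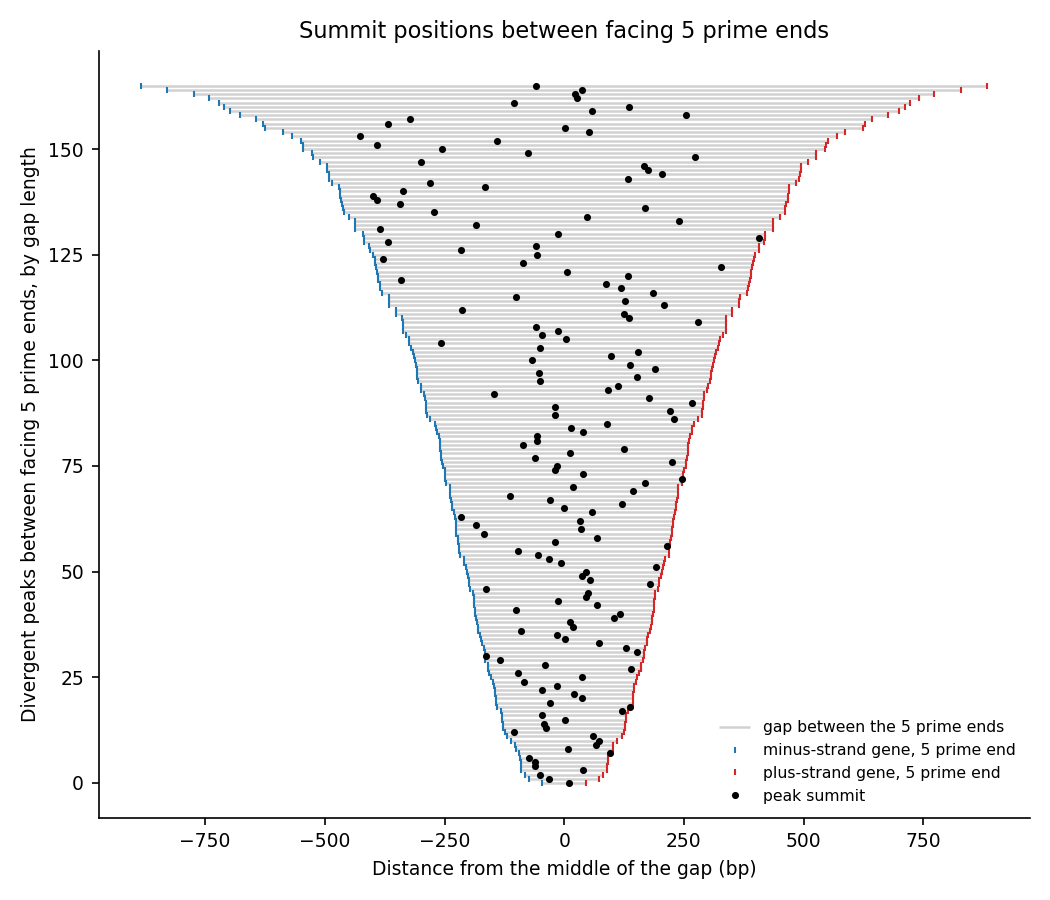
Each row is 1 of the 166 divergent peaks with a summit between facing 5′ ends, sorted by gap length, and the horizontal axis is the distance in bp from the middle of the gap. Grey lines span the gap, blue and red ticks are the 5′ ends of the minus- and plus-strand gene, and black points are summits, which lay anywhere between the ends and a median of 162 bp from the nearer one.

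Candidate peaks, the longer lists from which the authors drew the reproducible ones, reached the reproducible list more often in divergent windows than elsewhere. Of 1157 pooled candidates with a summit in divergent windows, 185 (16.0%, 13.9 to 18.2) were in it, against 572 of 7986 one-directional candidates (7.16%, 6.61 to 7.75) and 5.88% of all 23145 autosomal candidates. The intervals are 95% exact Clopper-Pearson intervals and cover counting error only. Replicate 3 alone gave 15.5% of divergent and 6.97% of one-directional candidates in its top list, and replicate 4 alone gave 18.9% and 10.3%. The list of replicate 3 holds exactly 30000 peaks, which may be a cap, and shares of its candidates depend on where it ends. By chromosome, the pooled share of divergent candidates ran between 13.6% on V and 18.8% on III, and the intervals of the 5 autosomes overlapped. Divergent summits made up 13.6% (11.8 to 15.5) of the autosomal reproducible peaks and 4.46% (4.19 to 4.74) of the 21785 lower-ranked candidates.

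The high share was that of summits between facing ends. Of 722 candidates between facing ends, 166 (23.0%) were reproducible peaks, against 17 of 403 candidates beside the ends (4.22%, 2.48 to 6.67). One-directional candidates upstream of their gene reached the list in 9.11% of cases and those downstream of its 5′ end in 4.06%. Candidates beside the facing ends were also in windows of both strands, and their interval includes the 5.88% of all autosomal candidates. The order of between ends, one-directional upstream and one-directional downstream was the same in each replicate, with 22.3%, 8.93% and 3.90% in replicate 3 and 24.6%, 12.2% and 7.02% in replicate 4.

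**Figure D2:**
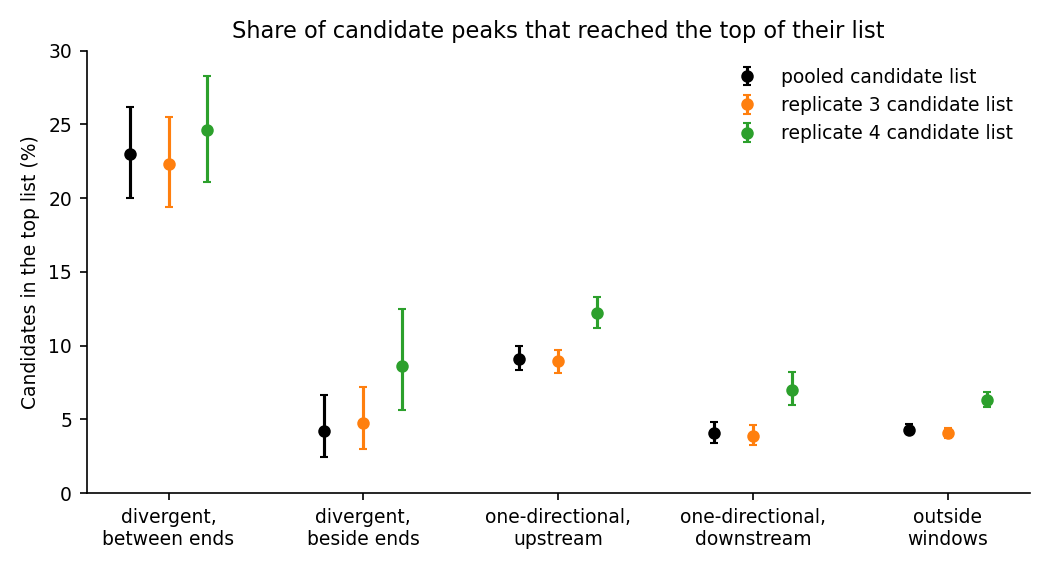
The vertical axis is the percentage of candidate peaks that reached the top of their list, for divergent candidates between or beside facing 5′ ends, one-directional candidates upstream or downstream of the 5′ end, and candidates outside windows. Black, orange and green points are the pooled, replicate 3 and replicate 4 lists and bars are 95% exact intervals; candidates between facing ends stand highest in all 3 lists, at 23.0%, 22.3% and 24.6%.

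Counted over gaps instead of candidates, head-to-head gaps held a peak most often. Of 2319 autosomal gaps of at most 2000 bp between head-to-head genes, 184 (7.93%, 6.87 to 9.11) held a reproducible summit, against 168 of 6480 tandem gaps (2.59%, 2.22 to 3.01), where both genes run the same way, and 28 of 1881 tail-to-tail gaps (1.49%, 0.991 to 2.14). Over all 10680 gaps the share was 3.56%. Replicate 3's top list gave 7.89%, 2.53% and 1.44% for head-to-head, tandem and tail-to-tail gaps, and replicate 4's gave 6.73%, 2.59% and 1.59%. A candidate of any rank lay in 29.8% of head-to-head, 18.4% of tandem and 14.8% of tail-to-tail gaps, and of the gaps with a candidate, 26.6%, 14.1% and 10.1% held a reproducible summit.

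At equal gap lengths up to 1000 bp, head-to-head gaps stood above tandem gaps in each length class, and the intervals did not overlap. Gaps of equal length still differ in the number of 5′ ends that flank them, which is higher at head-to-head than at tandem gaps. What this adds to the difference was not tested. Gaps of 251 to 500 bp held a summit in 11.7% of head-to-head, 4.15% of tandem and 2.34% of tail-to-tail cases. Gaps of at most 250 bp held one in 3.31%, 0.498% and 0.593%. Above 1000 bp the intervals of head-to-head and tandem gaps overlapped in each length class except that of 1501 to 1750 bp, where they were 5.62 to 16.3% and 1.16 to 5.19%. Measured between annotated 5′ ends, 199 of 2537 head-to-head pairs (7.84%) had a summit between them, most often at gaps of 251 to 500 bp (11.0%).

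**Figure D3:**
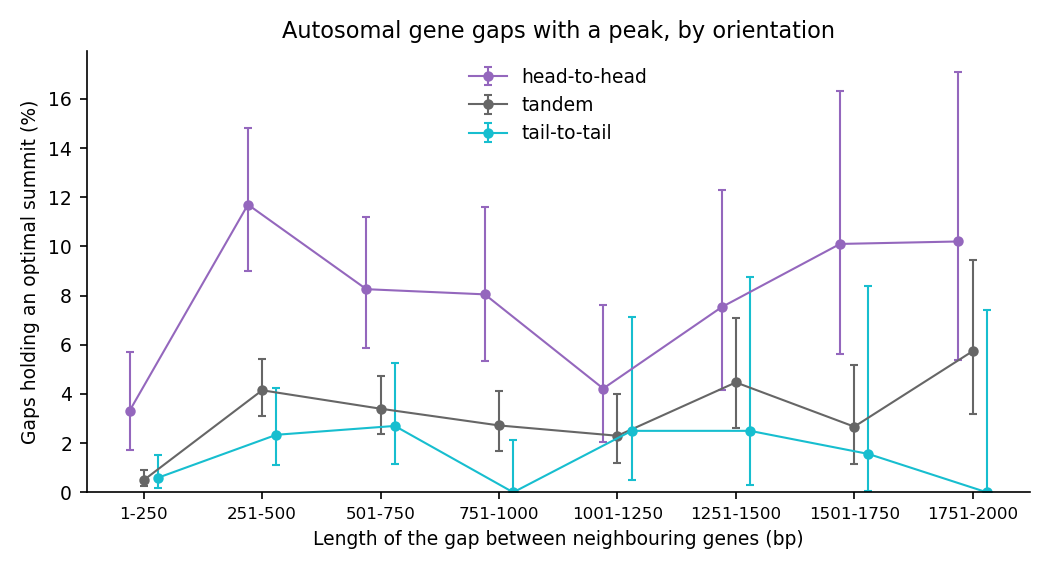
The vertical axis is the percentage of autosomal gaps between neighbouring protein-coding genes that held a reproducible summit, by gap length in bp on the horizontal axis. Purple, grey and cyan mark head-to-head, tandem and tail-to-tail gaps and bars are 95% exact intervals; head-to-head gaps of 251 to 500 bp stand highest at 11.7%.

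Divergent peaks had a slightly higher median signal than other autosomal peaks, and the strongest autosomal peaks were often divergent. Signal had a median of 139 and ran between 91.7 and 831 at divergent peaks, with a median of 134 at one-directional peaks and 133 over all 1360 autosomal peaks. The upper quartile was 195 at divergent and 176 at one-directional peaks. At the same peaks, replicate 3 had medians of 93.3 and 84.6, and replicate 4 had medians of 50.8 and 50.7. When each replicate ranked its own peaks, the medians were 93.2 at divergent and 83.5 at one-directional peaks in replicate 3, and 56.3 and 50.4 in replicate 4. The difference in medians was not tested. Of the 10 strongest autosomal peaks 5 were divergent, of the 25 strongest 10 (40.0%, 21.1 to 61.3), and of the 100 strongest 25 (95% interval 16.9 to 34.7%), beside 13.6% of all 1360. Ranked by replicate 3 alone, 9 of the 25 strongest and 29 of the 100 strongest autosomal peaks were divergent, and by replicate 4 alone, 9 and 23. The 166 members between facing ends had a median of 142, and the 17 beside the ends 113. The 447 one-directional peaks upstream of their gene had a median of 140, and the 125 downstream of its 5′ end 118. At those 447 peaks the medians were 88.7 in replicate 3 and 52.2 in replicate 4, against 94.1 and 52.5 at the 166 members.

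The 17 members beside the facing ends included few tall peaks. The 3 tallest all had their summit in a coding exon. The first was at qns-1 and the collagen gene col-124, with a pooled signal of 325, and of 217 in replicate 3 and 113 in replicate 4. The next were at ift-43 and mdt-26 (pooled 224, replicate 3 185, replicate 4 40.4) and at icl-1 and srh-2 (pooled 168, replicate 3 137, replicate 4 32.4), both lower in replicate 4 relative to replicate 3 than most members.

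Every divergent peak overlapped a candidate of replicate 3, and 184 of 185 overlapped one of replicate 4. The peak without one lay between npp-3, a nuclear pore gene, and top-2, a topoisomerase gene, and had a signal of 102 in the pooled list and 88.6 in replicate 3. In both top lists lay 140 members (75.7%, 68.8 to 81.7), against 71.5% (67.6 to 75.2) of one-directional peaks, and the intervals overlap. No member was in neither top list, against 8 one-directional peaks. Replicate 3 was the higher at 175 of the 184 members with a value in each, by a median ratio of 1.83 with quartiles of 1.55 and 2.21. Members far from it were a peak between par-5 and M117.3, with signals of 14.4 in replicate 3 and 57.0 in replicate 4, and 1 of 3 members at F40F11.3 and mig-38, with 91.1 in replicate 3 and 17.4 in replicate 4. The highest ratio of all was at another of those 3, beside the facing ends, with a pooled signal of 103 and 14.4 in replicate 4. Each replicate value is that of the overlapping peak with the nearest summit, which need not be the strongest overlapping one. Low values and outlying ratios may therefore belong to a weaker neighbouring peak, which was not tested.

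The 15 strongest divergent peaks all had their summit between facing ends, as did 166 of all 185 members (89.7%). All 15 were stronger in replicate 3 than in replicate 4, as were 175 of the 184 members with a value in each. The strongest lay at III:10759080-10759451 between K01G5.10 and tasp-1, a gene for a protease related to human taspase, with a pooled signal of 831, and of 590 in replicate 3 and 245 in replicate 4. Its summit was 65 bp upstream of tasp-1 and 720 bp upstream of K01G5.10. The peak at IV:4749903-4750234 between rpl-20, for a protein of the large ribosomal subunit, and Y17G9B.5 had signals of 769 (pooled), 491 (replicate 3) and 281 (replicate 4). It was the highest of all members in replicate 4, 290 bp upstream of rpl-20 and 172 bp upstream of Y17G9B.5.

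A peak at IV:654777-655099 lay 349 bp upstream of rpl-15, another large-subunit gene, and 465 bp upstream of K11H12.8, with signals of 737, 473 and 267 in the same order. The peak at III:13643589-13643910 lay almost midway between drr-2, for a protein related to a translation initiation factor, and set-16, for a histone methyltransferase. Its summit was 175 bp from drr-2 and 171 bp from set-16, and its signals were 729, 474 and 250. In a longer gap of 1423 bp at III:4899773-4900107, between nhl-2, for a cofactor of the microRNA pathway, and tag-340, the signals were 626, 414 and 209.

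Ribosomal and translation genes recurred among the other 10. The peaks of rps-19 with hsr-9, a gene of the DNA damage response (signal 507), of ifet-1, for a translational repressor that binds eIF4E, with rps-1 (492), and of rpl-12 with lin-54, for the DNA-binding subunit of a repressor complex of cell cycle genes (454), each put a ribosomal protein gene opposite another kind of gene. The peak of iff-2, for translation factor eIF5A, with F54C9.14 had a signal of 458, and that of larp-1, for an RNA-binding protein, with wip-1 had 414. Those of R107.5 with cls-2, for a microtubule-binding protein (486), of the chaperonin gene cct-8 with Y55F3AR.2 (481), and of H12C20.7 with the nuclear hormone receptor gene nhr-68 (429) followed. The peak of the heat shock genes F44E5.4 and F44E5.5 had a signal of 399. Across these 10 peaks the signal ran between 258 and 331 in replicate 3 and between 102 and 186 in replicate 4, so the replicates did not overlap. The F44E5 genes are near-identical copies, so reads of 1 copy may have been placed on the other, and this value is uncertain. The last of the 15, between sec-61.B and trap-3, had a pooled signal of 382, and of 283 in replicate 3 and 102 in replicate 4, and both genes encode parts of the channel that carries new proteins into the endoplasmic reticulum.

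**Figure D4:**
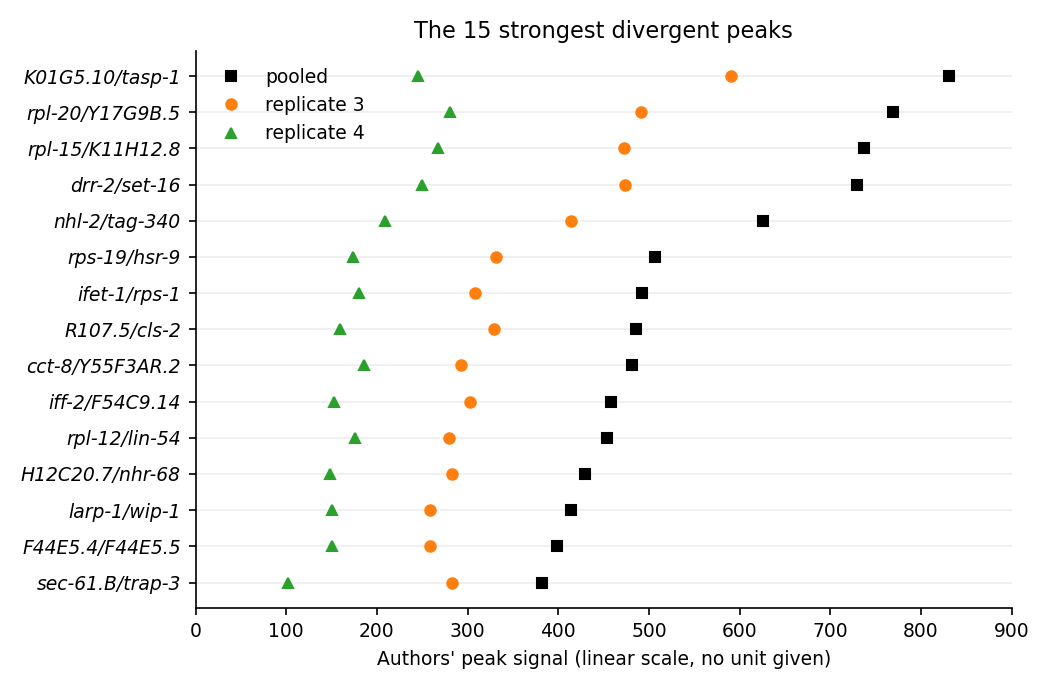
The horizontal axis is the authors' peak signal for the 15 strongest divergent peaks, named by the nearest gene of the minus and then of the plus strand. The axis is drawn linear, and the authors gave neither scale nor unit. Squares are the pooled list, circles replicate 3 and triangles replicate 4, and at all 15 peaks replicate 3 is higher than replicate 4, with 590 and 245 at the strongest.

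Cytosolic ribosomal protein genes and chaperone genes had the highest shares of genes with a divergent peak among the lists examined, ahead of respiratory chain genes and chromatin modifiers. Of the 17242 autosomal protein-coding genes, 376 (2.18%) had a divergent peak in their window, and of the 5012 genes of head-to-head pairs with 5′ ends at most 2000 bp apart, 397 (7.92%) had a summit between the ends. Of 24 lists of genes by function or family, 18 held at least 1 gene with a divergent peak, and 118 of the 376 genes were in a list. The lists were chosen with earlier results of these data known, so the shares below are descriptions, without a test.

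Cytosolic ribosomal protein genes, which encode the proteins of the ribosome outside mitochondria, stood highest. Of 81 such genes, 23 (28.4%, 18.9 to 39.5) had a divergent peak, through 21 distinct peaks, and of the 50 in head-to-head pairs 22 (44.0%) had a summit between the ends. A further 9 of the 81 had a one-directional peak. Signals at the 23 genes ran between 94.2 and 769 with a median of 138, so the list holds both the tallest members and weak ones. The next after the 5 ribosomal genes among the strongest peaks were rps-26 (341), rps-12 (331), rps-15 (270) and rps-20 (238). In replicate 3 the 23 ran between 22.3, at rps-18, and 491, and in replicate 4 between 29.8, at rps-0, and 281, both of the highest at rpl-20.

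The summit lay upstream of the annotated 5′ end at all 23 ribosomal protein genes, at a median of 290 bp. The same held at 357 of all 376 genes with a divergent peak, for which the median distance was 263 bp. At 15 of the 23 the summit was nearer the gene of the other strand, and the median distance to that gene was 231 bp. The summit was 200 to 500 bp upstream of the ribosomal protein gene at 19 of 23 (82.6%), against 152 of all 376 genes with a divergent peak (40.4%). The exceptions were rpl-12 at 33 bp, rpl-7A at 90 bp, rps-12 at 162 bp and rpl-43 at 733 bp.

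Of the 72 chaperonin and heat shock genes, which fold and refold proteins, 14 (19.4%, 11.1 to 30.5) had a divergent peak, and 15 of 37 (40.5%) in head-to-head pairs had a summit between the ends. These were led by cct-8 (481), hsp-60 of mitochondria (359), dnj-13, a co-chaperone (347), and hsp-90 (307). In replicate 3 these 4 had signals of 293, 218, 224 and 195, and in replicate 4 of 186, 140, 123 and 111. The 11 of 84 chromatin modifier genes (13.1%, 6.72 to 22.2) were led by tasp-1 (831), set-16 (729), lin-54 (454) and lin-53, for a histone-binding subunit of several complexes (253). Among head-to-head pairs the chromatin share was 11 of 28 (39.3%). The list also held ash-2, for a part of histone methyltransferase complexes (178), lin-35, for the worm retinoblastoma protein (150), and efl-1, for an E2F factor (133). It is broader than its name, since tasp-1 encodes a protease and lin-54, lin-35 and efl-1 encode transcriptional regulators. The summit was nearer the gene of the other strand at 9 of the 14 chaperonin and heat shock genes and at 7 of the 11 chromatin genes.

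Genes of energy metabolism, translation factors, transport and RNA splicing had shares between 10.8% and 14.9%. The respiratory chain and ATP synthase list had 7 of 47 genes (14.9%, 6.20 to 28.3), led by atp-1 (324), nduf-2.2 (247), mev-1 of succinate dehydrogenase (217) and cox-6B (167). Translation factors had 6 of 47 (12.8%, 4.83 to 25.7), led by iff-2 (458), eef-1A.1 (195), eef-2 (182) and eef-1G (179), and the summit was 11 to 68 bp upstream of the 5′ end at 4 of the 6 genes. Secretory and endosomal trafficking had 14 of 114 (12.3%, 6.88 to 19.7), led by trap-3 and sec-61.B (382 for 1 shared peak), the endosomal GTPase gene rab-7 (309) and vps-32.1 (230). The rab-7 peak had its summit 769 bp upstream of rab-7, and its nearest genes were W03C9.5 and mex-1. Splicing factors had 7 of 65 (10.8%, 4.44 to 20.9), led by rsp-1 and rsp-2 (166 for 1 shared peak), lsm-7 (139) and prp-40 (118).

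Cell cycle and DNA replication genes followed with 7 of 86 (8.14%), among them rfc-4 (195), knl-3 of the kinetochore (156), cye-1 for cyclin E and cdc-14 (109). The proteasome had 2 of 33 (6.06%), rpn-3 (183) and pbs-1 (121). Mitochondrial ribosomal proteins had 4 of 70 (5.71%), led by mrps-21 (195). The summit of that peak was 993 bp upstream of mrps-21, and its nearest genes were F29B9.11 and jmjd-1.2. RNA polymerase and general transcription factors had 4 of 78 (5.13%), led by mdt-26 (224). The proton pump and autophagy list had 2 of 45 (4.44%), vha-1 (156) and vha-8 (142). Histones had 3 of 77 (3.90%), led by htz-1 for the variant H2A.Z (165). The peak at his-35 and his-41 (96.2) lies in genes with near-identical copies elsewhere and is uncertain, as is that of hsp-16.2 and hsp-16.41, described below. Aminoacyl-tRNA synthetases had 1 of 31 (3.23%), ears-2 (139). Among the lists of this paragraph the interval was above 2.18% for the cell cycle list (3.34 to 16.1) and included it for the others. In head-to-head pairs the proton pump and autophagy list had 4 of 13 genes (30.8%) with a summit between the ends.

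Gene families with restricted or conditional use were at or below the share of all genes. Cuticle collagens had 3 of 147 (2.04%), led by col-124 (325), nuclear hormone receptors 3 of 247 (1.21%), led by nhr-68 (429), and F-box, MATH and BTB genes 4 of 395 (1.01%), led by fbxb-85 (220). Chemoreceptors had 3 of 1278 (0.235%, 0.0484 to 0.684), among them srh-2 (168) and sri-5 (160). Within head-to-head pairs, 3 of 283 (1.06%) had a summit between the ends. Detoxification enzymes had 0 of 171, which allows a share of up to 2.13% by the exact interval, and 0 of 43 in head-to-head pairs. Major sperm proteins (0 of 53), bHLH factors (0 of 31), zinc finger genes named ztf (0 of 22), muscle contractile genes (0 of 21) and the single autosomal vitellogenin gene had none, and these lists are short. Of the ztf genes in head-to-head pairs, 1 of 6 (16.7%) had a summit between the ends. Among head-to-head histone genes, which stand in repeated clusters, 1 of 63 had a summit between the ends.

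**Figure D5:**
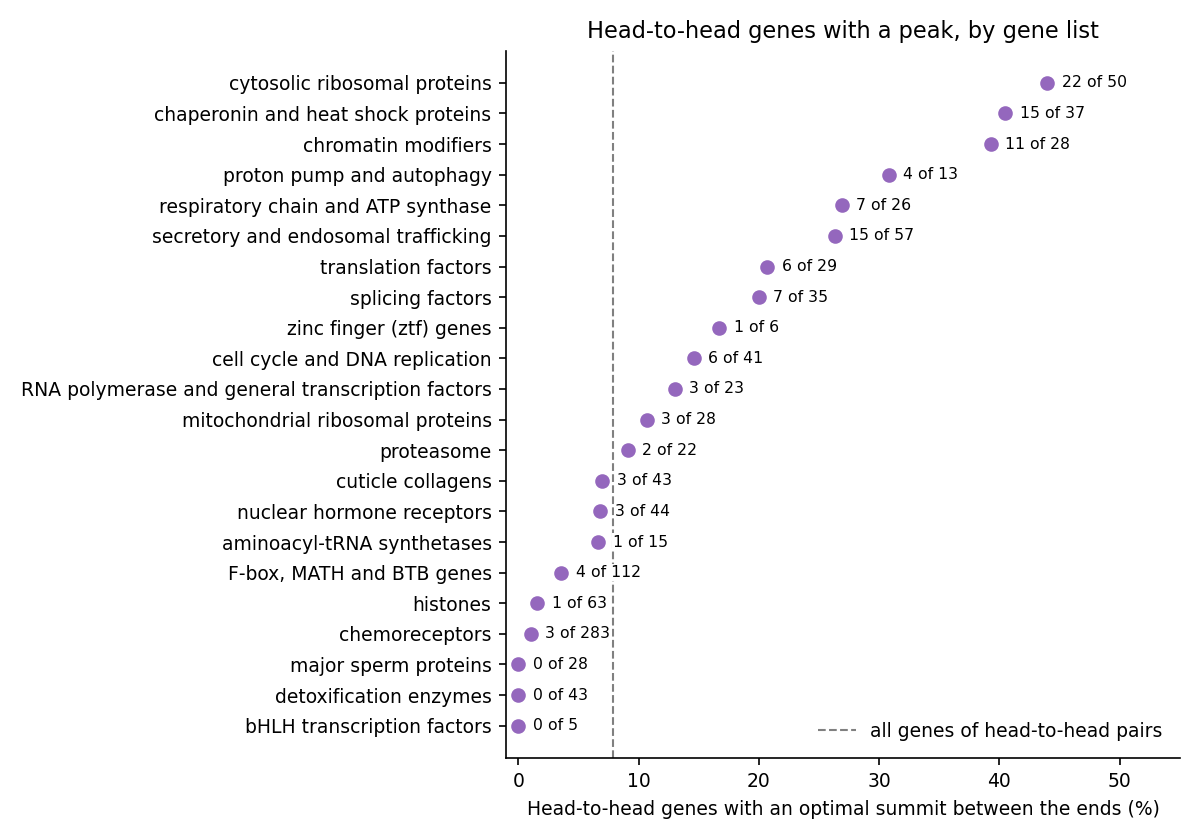
The horizontal axis is the percentage of genes in head-to-head pairs that had a reproducible summit between the 5′ ends, for each gene list with at least 5 such genes, with the counts beside each point. The dashed line is the 7.92% of all genes of head-to-head pairs. Cytosolic ribosomal proteins (44.0%), chaperones (40.5%) and chromatin modifiers (39.3%) lie farthest to its right, and chemoreceptors (1.06%) lie to its left. The lists were chosen with earlier results of these data known.

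In 23 members both nearest genes were in a list, and 93 members had at least 1 listed gene. The strongest of the 23 were those of rpl-12 with lin-54 (454) and sec-61.B with trap-3 (382), followed by dnj-19 with nhr-47 (260), jmjd-4 with mev-1 (217), rpl-7A with set-21 (212), apb-1 with mdt-19 (205), eef-1A.1 with rfc-4 (195) and hsp-110 with rpn-3 (183). Of these 8, only the sec-61.B peak joined genes of 1 list. Further peaks with both nearest genes in 1 list were seen at rsp-1 and rsp-2, for splicing factors (166), hsp-16.2 and hsp-16.41, for small heat shock proteins (143), rps-14 and rpl-36 (110), rpl-39 and rps-30 (109), and his-35 and his-41 (96.2). At the last of these the summit lay beside the facing ends, 4 bp downstream of the 5′ end of his-41. These 5 peaks were named after their values were seen.

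The bases at divergent summits were richer in G and C than the DNA beside them. The bases within 50 bp of the summits held 48.7% G and C, against 35.1% in windows 300 bp to the right and 36.4% to the left, and the summit was above its right flank in 161 of 185 members. One-directional summits held 46.4%, lower-ranked candidates between facing ends 40.0%, and the midpoints of head-to-head pairs 34.3%. The summit windows of replicate 3's top list held 49.9% and those of replicate 4's top list 46.8%.

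Of 658 words of 7 bases tested between summits and right flanks, 52 (7.90%) were more frequent at the summits and 58 less frequent, at an adjusted p of 0.05 in McNemar's exact test with Benjamini-Hochberg adjustment. A word and its reverse complement were counted as 1. AAGTGCG was in 20 summit windows (10.8%) and 1 flank, and AGTGCGC in 18 (9.73%) and 0 flanks, each with an adjusted exact p of 0.00223. CTGCGTA, in 17 summit windows (9.19%) and 0 flanks, and CTGGCGC, in 20 and 1, had the same adjusted exact p, which was the lowest reached. The words less frequent at the summits were led by runs of A and T, such as TTTAAAA, in 7 summit windows and 32 flanks (adjusted exact p = 0.00223), which go with the lower G and C content of the flanks.

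Some words were more frequent at divergent than at one-directional summits. Of 2468 words, 16 (0.648%) passed Fisher's exact test with Benjamini-Hochberg adjustment, and all 16 were more frequent in divergent summits, where the G and C content was 48.7%, against 46.4%. GAGCGCA was in 17 of 185 divergent windows (9.19%) and 5 of 572 one-directional windows (0.874%), with an odds ratio of 11.5 and an adjusted exact p of 4.3e-04 (two-sided). ACCGTAC was in 8.11% and 0.874% (adjusted exact p = 0.00221), CTACGCA in 5.41% and 0.175% (0.00336), CTGCGTA in 9.19% and 1.75% (0.00825), and GAGACCC in 10.3% and 2.45% (0.0131). At least 1 of the 16 was in 90 divergent windows (48.6%), in 14.2% of one-directional windows, in 7.03% of right flanks, in 20.1% of lower-ranked candidates between facing ends and in 11.5% of head-to-head midpoints. The words were chosen for being more frequent in these same divergent windows, and that choice raises the 48.6% beside each of the other shares. All of these shares are therefore a description, as are those of the word groups below.

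The number of words depended on the replicate. In the top list of replicate 3 alone 12 of the 16 words passed, and in that of replicate 4 alone 5 of the 15 that could be tested. None of the words tested changed direction in either. The words were chosen in the pooled list, and 172 and 153 of its 185 members were also in the top lists of replicates 3 and 4. The replicate tests thus read largely the same stretches of DNA and are not independent of that choice. The words that passed in each replicate alone were GAGCGCA (adjusted exact p = 0.00209 in replicate 3 and 0.0167 in replicate 4), ACCGTAC (0.00188 and 0.00111), CCGTACC (0.0195 and 0.0180), CTGCGTA (0.00451 and 0.0167) and GAGACCC (0.0161 and 0.0195). Between the 166 members with facing ends and the one-directional summits upstream of their gene, a comparison added after the values were seen, 10 of the 16 passed.

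The 16 words fell into a few overlapping groups, in which a word shares 6 bases with the next. The first held GAGCGCA (in 17 divergent windows), CGCTCCA (18), GCTCCAC (13), AGCGCAC (11), GCGCTCC (14) and AGTGCGC (18). At least 1 of these was in 41 divergent windows (22.2%), 6.29% of one-directional windows and 4.33% of head-to-head midpoints. In the rpl-12 window above, words of this group and CAAGTGC overlap in 1 run. The peaks of tasp-1 (831), rpl-15 (737) and rps-1 (492) also carried words of the group. The second held ACCGTAC (in 15 divergent windows), CCGTACC (9) and CACCGTA (10). At least 1 of these was in 20 divergent windows (10.8%), among them those of rpl-15 and cct-8, and in 1.40% of one-directional ones. All 20 were between facing ends, as were 166 of all 185 members (89.7%). The third, CTACGCA (in 10 divergent windows) with CTGCGTA (17), was in 18 (9.73%) and 1.75%, among them set-16, nhl-2, iff-2 and rpl-12. The word CGCTACG, in 9 divergent windows (4.86%) and 0.524% of one-directional ones, overlaps CTACGCA and CTGCGTA in the iff-2, rpl-12 and rps-14 windows above. Its 9 members had a median signal of 454, and 5 of them were among the 15 strongest, those of nhl-2, rps-19, cls-2, iff-2 and rpl-12. GAGACCC (in 19 divergent windows) with CGAGACC (19) was in 25 (13.5%) and 3.67%, among them hat-1, for a histone acetyltransferase (336), and mex-1 (309).

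Of the 15 strongest members 10 carried at least 1 of the 16 words, and of the 21 peaks at cytosolic ribosomal protein genes 15 (71.4%). The 90 members with a word had a median signal of 148, and the 95 without one 133, with medians of 103 and 88.7 in replicate 3 and 56.3 and 48.6 in replicate 4. Their windows held 50.8% G and C, against 46.8% in the windows without a word. The words are short and common in the genome, with 2903 copies of AGCGCAC, the rarest, and 11011 copies of GAGACCC, the most common, so few of their copies lay in these peaks. Repeated sequence can draw reads of other copies. A stretch of 15 bases found at least 10 times in the genome lay in 71.4% of divergent windows, 80.0% of their flanks and 62.6% of one-directional windows, and in 74.4% of the windows with a word against 68.4% of those without. Its part in the peaks was not tested.

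Other words found at these summits did not pass in the comparison with one-directional summits. CTGCGTC was in 16 divergent windows (8.65%) and 10.1% of one-directional windows (odds ratio 0.839, unadjusted Fisher's exact p = 0.669), and in 1.62% of right flanks. CACGTG, the E-box bound by many bHLH factors, was in 11 (5.95%, 3.01 to 10.4) and 8.39%, and CTCTCTC in 11 (5.95%) and 10.8%, with an unadjusted Fisher's exact p of 0.0615 and 0.705 after adjustment. GAGACGC, which overlaps the reverse complement of CTGCGTC, was in 17 divergent windows (9.19%) and 10.8% of one-directional ones, and ACGCAGA in 16 (8.65%) and 9.09%. The right flanks held CACGTG in 2.16% and CTCTCTC in 2.16% of cases, and the head-to-head midpoints held CTGCGTC in 1.46%, CACGTG in 1.78% and CTCTCTC in 1.66%. CACGTG has 6 bases and was not among the words tested. The strongest members with CTGCGTC were those of set-16 (729), F44E5.4 (399) and attf-2 (211), those with CACGTG were cls-2 (486), nhr-68 (429) and mif-4 (349), and those with CTCTCTC were dnj-13 (347), gmps-1 (253) and apb-1 (205). The nhr-68 window is shown on the plus strand of ce11 with its E-box in capitals.
H12C20.7/nhr-68, V:11572997-11573097: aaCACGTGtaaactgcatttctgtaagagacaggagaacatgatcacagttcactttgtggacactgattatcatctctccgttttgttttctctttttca

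Heat shock elements were searched after the F44E5.4 window had been read. The heat shock element is the binding site of the heat shock factor, built from the unit GAA in alternating orientation with 2 bases between units, and 3 such units in a row were asked for on either strand. It was in 6 of 185 divergent windows (3.24%), 5 of 572 one-directional windows (0.874%), 1 flank (0.541%), 0.540% of lower-ranked candidates between facing ends and 0.850% of head-to-head midpoints. The 6 members were those of cls-2 (486), F44E5.4 and F44E5.5 (399), hsp-110 (183), hsp-16.2 and hsp-16.41 (143), ahsa-1, for an activator of HSP90, and dnj-12 (120). At 5 of the 6, among them the window that prompted the search, at least 1 of the genes encodes a heat shock protein or co-chaperone. Of the 13 divergent peaks at genes of the chaperonin and heat shock list, 3 held the element, and those of cct-8, hsp-60, dnj-13 and hsp-90 did not. In the windows below, on the plus strand of ce11 with the element in capitals, it covered the summit base at cls-2 and lay to 1 side of it in the others.
R107.5/cls-2, III:9054000-9054100: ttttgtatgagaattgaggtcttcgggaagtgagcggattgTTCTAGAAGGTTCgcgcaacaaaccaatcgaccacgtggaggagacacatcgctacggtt
F44E5.4/F44E5.5, II:11759422-11759522: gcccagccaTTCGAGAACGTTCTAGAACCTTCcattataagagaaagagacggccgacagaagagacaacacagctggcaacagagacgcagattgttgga
hsp-110/rpn-3, III:8447062-8447162: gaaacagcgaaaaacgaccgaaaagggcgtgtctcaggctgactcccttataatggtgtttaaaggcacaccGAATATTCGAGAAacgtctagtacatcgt
hsp-16.2/hsp-16.41, V:1805090-1805190: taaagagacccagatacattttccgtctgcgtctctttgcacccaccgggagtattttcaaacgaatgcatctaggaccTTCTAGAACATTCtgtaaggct
ahsa-1/C01G10.7, V:15085534-15085634: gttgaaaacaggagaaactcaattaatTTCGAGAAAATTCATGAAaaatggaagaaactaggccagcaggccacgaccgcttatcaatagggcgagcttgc

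The member nearest the edge was the cls-2 peak, whose summit was 998 bp upstream of cls-2, 2 bp inside the window, with a signal of 486. The next were 5 bp inside, at C25H3.10 (96.5) and at fbxa-90 (133). Just outside were a peak 1002 bp upstream of F17C11.6 (114), a peak 515 bp downstream of the 5′ end of ZK1248.17 (172) and a peak 522 bp downstream of that of F25B4.4, with signals of 57.7 in replicate 3 and 44.3 in replicate 4.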

How the data were processed

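ChIP-seq of 2 biological replicates was used as deposited, 1 peak list per replicate, 1 pooled list of both and 1 list of reproducible peaks, all on ce11. The deposited score is the authors' signal per peak, whose scale is not given, and it was used to rank and describe peaks. The deposited −log10 q-value was 3.63 for all reproducible peaks. Peak positions and summits were taken from the authors' lists, and 0 peaks ran past the end of a chromosome of the WBcel235 assembly. The aligner, the peak caller and the reproducibility threshold are not given in the sources used here. The reproducible list equalled the 1929 strongest pooled peaks. The pooled list held 28233 peaks, that of replicate 3 held 30000 and that of replicate 4 held 20373, and depth is unknown.

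Genes came from Ensembl release 115, sequence from the RefSeq WBcel235 genome. Replicate values are those of the overlapping peak (at least 1 bp) with the nearest summit, whether or not it was the strongest overlapping one. Words of 7 bases found in at least 10 windows were tested in 101 bp around summits with McNemar's and Fisher's exact tests, two-sided, with Benjamini-Hochberg adjustment (scipy 1.17.1, statsmodels 0.14.6, Python 3.11.15), checked on simulated data. Intervals are exact at 95%. Tests and intervals treat peaks as independent. The members and lists were chosen with earlier results of these data known. Named were the nearest genes of the 15 strongest members, up to 4 genes per list, up to 8 members with listed genes on both strands, 3 peaks on each side of the window edge and the 3 strongest members with each of 3 words (an E-box, a CTGCGTC and a CT repeat). Other names, the heat shock element and the word groups were chosen after their values were seen.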

Additional observations from a re-analysis of the deposited data

How the results depend on the processing

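No paired analysis was possible because all samples belonged to 1 group. The share of divergent-window candidates that were reproducible exceeded that of one-directional ones in each setting tried. With windows of 500 bp upstream to 250 bp downstream it was 22.8%, against 8.64%, and 9.26% of autosomal peaks were divergent. With 2000 bp upstream the values were 12.7%, against 6.35%, and 21.7%. With only the peaks above the median signal of the reproducible list they were 9.42%, against 3.71%, and 15.6%, the median signal was 183, 4.89% of head-to-head pairs held a summit, 16 words were higher at summits than in flanks, 2 differed from one-directional summits, and 75 listed genes had a divergent peak. This setting keeps fewer peaks and so tests fewer words. With 1 summit per merged region the candidate share was 18.5%.

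Leaving out a replicate, so that the other alone ranked the peaks, gave candidate shares of 15.5 to 18.9%, divergent shares of 12.1 to 13.4%, median signals of 56.3 to 93.2, shares between facing ends of 84.4 to 87.6%, nearest distances of 160 to 166 bp, pairs with a summit of 6.86 to 7.92%, G and C contents of 46.8 to 49.9%, 33 to 60 words against flanks, 5 to 15 against one-directional summits and 105 to 113 listed genes. Windows reaching 25 bp to either side of the summit gave 14 and 2 words in the same order and 50.9% G and C, and windows reaching 100 bp 44.0% G and C. Against one-directional summits upstream of their gene, a setting added after seeing the data, 10 words differed. With candidates of any rank, 29.6% of pairs held a summit and 99.5% of members had a candidate in both replicates. No value changed direction. The causes of these shifts were not tested. The lists give no read depth, so counting error in the reads could not be assessed.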
